A study of Mus musculus with 15 samples.

Results

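The distal chromosome 7 segment described here runs from 151000000 to 152250000 in the mouse build mm9 and was named for Shank2, on its proximal side, and Ccnd1. Its members are the accessible regions of the table whose interval overlaps it, 17 of 43020 regions in all, against 2469 on the rest of chromosome 7. The members lie between 151008287 and 151420040, and the position given for Ccnd1, near 152.12 Mb, is 700.0 kb beyond the last of them. The next region used here starts at 152512361. Regions around Ccnd1 were not analysed here, so the values below concern the proximal end of the segment only, and it is called the distal chromosome 7 segment.

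The assay was ATAC-seq. Its transposase cuts open DNA and joins adapters to the ends, so that the reads of a region rise with its openness and with the number of DNA copies. The samples were organoids of mouse colon cancer with the genotype labelled AKP, from tumours grown in C57Bl6 recipient mice. The groups Met1, Met2 and Met3 were grown from the liver metastases of rounds 1, 2 and 3 of transplantation, and the groups Primary2 and Primary3 from the primary tumours of rounds 2 and 3. Each group holds 3 lines, and between rounds organoids of both origins were put back into the colon of immunocompetent mice. All groups carry the AKP genotype, lines never transplanted were not analysed here, and the labels do not say which line came from which. Counts per library, summed over all regions used here, ran from 285633 (Primary3 replicate 2) to 5916109 (Primary3 replicate 3). The second lowest sum was 790233, in Met1 replicate 1.

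Shank2 encodes a scaffold protein of the postsynaptic density that binds the actin regulator cortactin. Ccnd1 encodes cyclin D1, which partners cyclin-dependent kinases that phosphorylate the retinoblastoma protein and let cells enter S phase. In RefSeq's annotation, which is of another build and was used only for names and order, the protein-coding genes run Nadsyn1, Dhcr7, Acte1 and Shank2. They continue with Cttn, Ppfia1, Fadd, Ano1, Fgf3, Fgf4, Fgf15, LTO1 and Ccnd1. Dhcr7 encodes the enzyme of the last step of cholesterol synthesis, Nadsyn1 an enzyme that makes NAD, and Cttn cortactin itself. Gene borders in mm9 were not used here, so no region was assigned to a gene, a promoter or an intron.

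The ATAC-seq signal of the segment was lowest in the metastasis lines of rounds 2 and 3, intermediate in those of round 1 and highest in the primary lines. DNA copies and openness cannot be told apart in these counts. Its members held 0.548%, 0.528% and 0.603% of the chromosome 7 counts in Met1, 0.340%, 0.484% and 0.403% in Met2 and 0.409%, 0.361% and 0.442% in Met3. In primary lines the share was 0.720%, 0.739% and 0.833% in Primary2 and 0.744%, 0.725% and 0.732% in Primary3. Every Met2 and Met3 line thus lay below every Met1 line, and every Met1 line below every primary line. The Wilson 95% interval was widest in Primary3 replicate 2 (0.619% to 0.849%, from 152 counts), and it overlapped no Met2 or Met3 interval, the highest of which was 0.449% to 0.520% (Met2 replicate 2, 714 counts). The Primary3 replicate 2 interval did overlap that of Met1 replicate 3 (0.571% to 0.637%). That of Met2 replicate 2 overlapped those of Met1 replicate 1 (0.488% to 0.616%) and replicate 2 (0.497% to 0.561%). Whether the order of these lines exceeds counting error was not tested, and overlap of intervals does not decide it. Intervals cover counting error only. The segment was proposed with results of these data known, so its levels are a description and carry no test.

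The same order was seen in these same counts when each region had equal weight, which is not separate support. CPM are counts scaled to a library's sum over the tested regions, with the TMM scaling given below. Each region enters as log2 CPM minus its mean over the 15 lines. Such values were taken for the 16 members with enough counts to be tested. The level of a line is their median, less the same median over the rest of chromosome 7. It was -0.15, 0.10 and 0.13 in Met1, -0.77, -0.26 and -0.54 in Met2 and -0.88, -0.75 and -0.52 in Met3, against 0.54, 0.49 and 0.77 in Primary2 and 0.40, 0.41 and 0.80 in Primary3. The group means were 0.03 ± 0.15 in Met1, -0.52 ± 0.26 in Met2 and -0.71 ± 0.18 in Met3, against 0.60 ± 0.15 in Primary2 and 0.54 ± 0.22 in Primary3 (SD, n = 3 each). Met2 and Met3 overlapped, as did Primary2 and Primary3, so within each pair the order of the means is not separated by their spread. Met1 overlapped neither. The rest of chromosome 7 moved far less, from -0.09 to 0.00 in the 9 metastasis lines and from -0.14 to 0.15 in the 6 primary lines, relative to all regions.

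**Figure D1:**
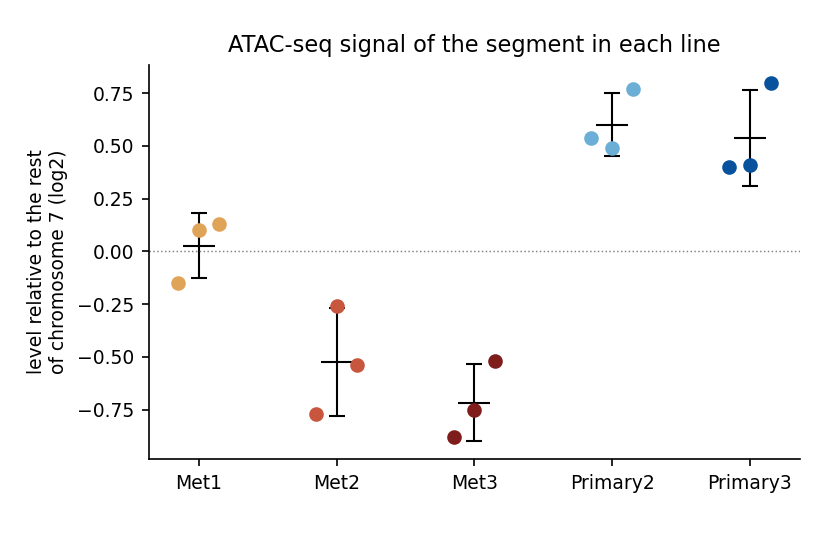
Level of the segment in each of the 15 lines, in log2 units relative to the rest of chromosome 7. Points are lines and bars are group means with SD (n = 3), and the 6 lines of Met2 and Met3 sit between -0.88 and -0.26, below the Met1 lines and below the 6 primary lines (0.40 to 0.80).

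In rounds 2 and 3 together, 10 of the 16 tested members were called lower in metastasis than in primary lines, and 1 was called higher (edgeR quasi-likelihood test, Benjamini-Hochberg adjusted p under 0.05 over all 39952 tested regions). Of all tested regions, 8.98% were called lower and 11.2% higher in this comparison, and on the rest of chromosome 7 214 and 139 of 2308 regions were. Since the segment was chosen with such values known, nothing is read from the difference between these shares. The remaining member, peak_94010, did not pass the filter on low counts (88 counts over the 15 lines). The median log2 fold change was -1.55 over the tested members, -0.05 over the rest of chromosome 7 and 0.04 over all regions.

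Among the regions used here, the lower members sit side by side. The 10 called lower lie within 139 kb, from 151110068 to 151249020. The only other region used here in that stretch is the untested peak_94010. Numbers in the region names are not consecutive there, so other called regions may lie between them. Outside it, on the proximal side, peak_93988, peak_93989 and peak_94002 were not called and peak_93990 was called higher, and on the distal side peak_94031 and peak_94053 were not called. The summed signal of the 10 was 154, 158 and 217.8 CPM in Met1, 52.5, 109.8 and 97.9 in Met2 and 71.7, 54.9 and 86.8 in Met3, against 333.6, 311.3 and 398.5 in Primary2 and 407.7, 321.8 and 349.3 in Primary3. These 10 were picked by their call between the later metastasis and the primary lines, so that the distance between these sums follows in part from the choice. The sums of the Met1 lines lay between both sets in each case. With members picked for a gap between those sets, a middle place was likely in advance, so nothing is read from it.

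**Figure D2:**
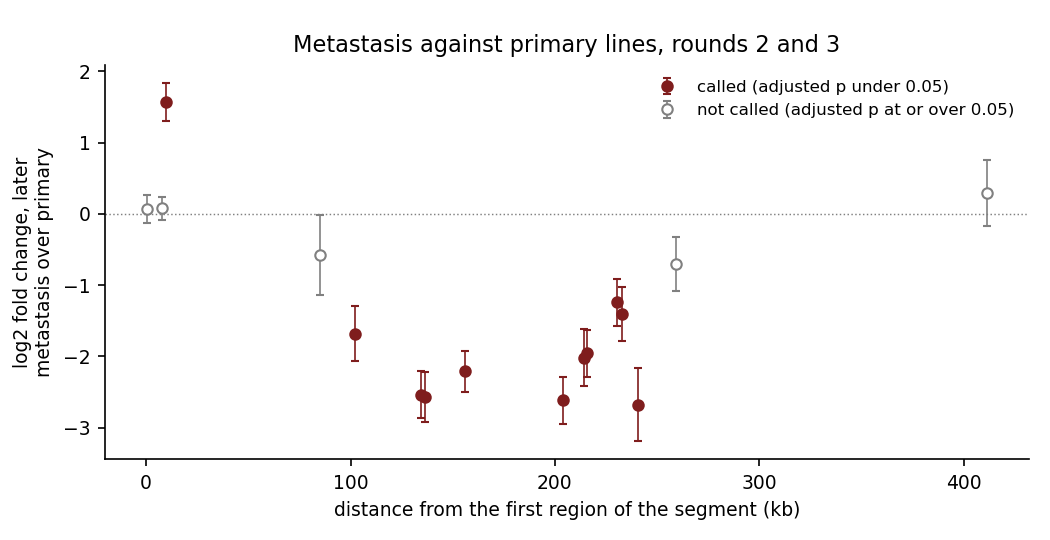
Log2 fold change (± SE) of the 16 tested members, metastasis over primary lines in rounds 2 and 3 together, against distance in kb from the first member. Filled points are called at an adjusted p under 0.05, and they form a run of 10 decreases with 1 increase near the start.

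Within the run, the regions with the highest mean signal over all lines are described first. At peak_94015 (chromosome 7, 151163583 to 151165329, the widest member at 1746 bp) the signal was 24.9, 40.3 and 45.7 CPM in Met1, 7.97, 20.6 and 22.4 in Met2 and 12.2, 5.34 and 24.6 in Met3. It was 68.3, 72.2 and 74.2 CPM in Primary2 and 88.5, 51.0 and 62.9 in Primary3. Every metastasis line was below every primary line, and the log2 fold change in rounds 2 and 3 together was -2.21 ± 0.29 (SE).

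At peak_94022 (151211749 to 151212509) the Met1 lines held 10.2, 19.7 and 27.8 CPM, the Met2 lines 3.99, 15.2 and 3.50 and the Met3 lines 9.11, 4.96 and 7.12. The Primary2 lines held 29.0, 35.6 and 49.2 CPM and the Primary3 lines 64.0, 54.2 and 51.8. Again no metastasis line reached a primary line, and Met2 replicate 2 was the highest of the later metastasis lines. The log2 fold change was -2.62 ± 0.33, a 6.17-fold lower signal in metastasis lines.

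The neighbours peak_94011 (151142323 to 151143214) and peak_94012 (151144052 to 151145161) lie 0.84 kb apart. The first held 18.1, 21.3 and 47.1 CPM in Met1, 3.32, 10.8 and 18.9 in Met2 and 24.3, 9.16 and 11.7 in Met3, against 87.5, 65.7 and 108.1 in Primary2 and 86.4, 38.2 and 55.7 in Primary3. The second held 15.9, 19.0 and 10.1 CPM in Met1, 6.64, 8.52 and 3.50 in Met2 and 2.43, 6.10 and 3.89 in Met3, against 35.9, 38.8 and 40.3 in Primary2 and 37.8, 6.37 and 24.4 in Primary3. At peak_94011 the 6 later metastasis lines lay below the 6 primary lines, whereas at peak_94012 Primary3 replicate 2 (2 counts) lay among the metastasis lines. Their log2 fold changes were -2.54 ± 0.33 and -2.57 ± 0.35.

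At peak_94025 (151223728 to 151224587) the rounds looked less alike. The signal was 19.3, 20.3 and 14.9 CPM in Met1, 7.31, 23.8 and 27.3 in Met2 and 4.25, 3.82 and 15.5 in Met3, against 33.6, 24.6 and 45.2 in Primary2 and 59.1, 76.5 and 63.8 in Primary3. Met2 replicate 3 exceeded Primary2 replicate 2, whereas the Met3 and Primary3 lines were far apart. The log2 fold change was -0.81 ± 0.44 in round 2, where the region was not called, and -3.11 ± 0.48 in round 3. The difference between the rounds was -2.30 ± 0.65 and was not called over all regions. It was the only member at an unadjusted p under 0.05 in that comparison.

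The other lower members had weaker signal. The largest fold change of all was at peak_94029 (151248430 to 151249020), at -2.68 ± 0.51, but it rests on few reads, with 1 to 13 counts in each Met2 and Met3 line. Its lines held 6.79, 3.17 and 21.2 CPM in Met1, 2.66, 1.35 and 2.10 in Met2 and 2.43, 4.96 and 0.648 in Met3, against 15.1, 20.2 and 10.5 in Primary2 and 17.1, 3.19 and 20.8 in Primary3. Met1 replicate 3 stood with the primary lines here, and Primary3 replicate 2, with 1 count, with the metastasis lines.

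Next to peak_94025 lies peak_94024 (151222190 to 151222559), where the later metastasis lines averaged 3.50 ± 1.31 CPM and the primary lines 16.0 ± 8.11 (SD, n = 6 each), a log2 fold change of -2.02 ± 0.40. All later metastasis lines were below all primary lines there, and likewise at peak_94027 (5.76 ± 1.58 against 13.9 ± 3.39 CPM, log2 fold change -1.24 ± 0.33). At peak_94006, which opens the run, the means were 6.29 ± 3.07 and 20.8 ± 7.99 CPM (-1.68 ± 0.39), and the lines overlapped. At peak_94028 the later metastasis lines were tightly grouped at 6.35 ± 1.29 CPM, while the primary lines spread widely at 17.0 ± 9.30 (-1.41 ± 0.38). This region was no longer called without Primary2 replicate 3 (-1.12) or Primary3 replicate 3 (-1.16), and it was the exception to the Met1 order, since the Met1 mean of 21.3 ± 8.74 CPM (n = 3) exceeded that of the primary lines.

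In 5 of the 16 tested members every Met2 and Met3 line lay below every primary line, and in 1 every such line lay above. Over all tested regions these shares were 3.70% and 4.22%.

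The 1 member called higher was peak_93990 (151017996 to 151018491), 91.6 kb before the run. It held 17.0, 29.2 and 19.99 CPM in Met1, 33.2, 52.9 and 46.8 in Met2 and 63.8, 48.5 and 74.5 in Met3, against 15.1, 10.9 and 20.2 in Primary2 and 26.2, 3.19 and 22.0 in Primary3. All later metastasis lines exceeded all primary and all Met1 lines, and the Met1 lines overlapped the primary lines. The log2 fold change over primary lines was 1.57 ± 0.27. The Met1 mean lay between the later metastasis and primary means at 12 of the 16 tested members, this one and 9 of the 10 of the run among them. The share over all tested regions was not computed. This member and the run were called for a gap between later metastasis and primary lines. Such a gap makes a middle Met1 mean likely, so nothing is read from this count.

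The neighbours of peak_93990 on the proximal side were steady. At peak_93989 (151015430 to 151016303), 1.7 kb away and the strongest member, the means were 75.0 ± 11.7 CPM in later metastasis and 71.9 ± 13.9 in primary lines (SD, n = 6 each), with a log2 fold change of 0.08 ± 0.16. At peak_93988 (151008287 to 151009127) they were 39.9 ± 8.77 and 37.7 ± 4.32 CPM (0.07 ± 0.20). These 2 regions carried the highest scores that the authors gave to any member. The lower signal of the run was not seen at these first members of the segment.

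**Figure D3:**
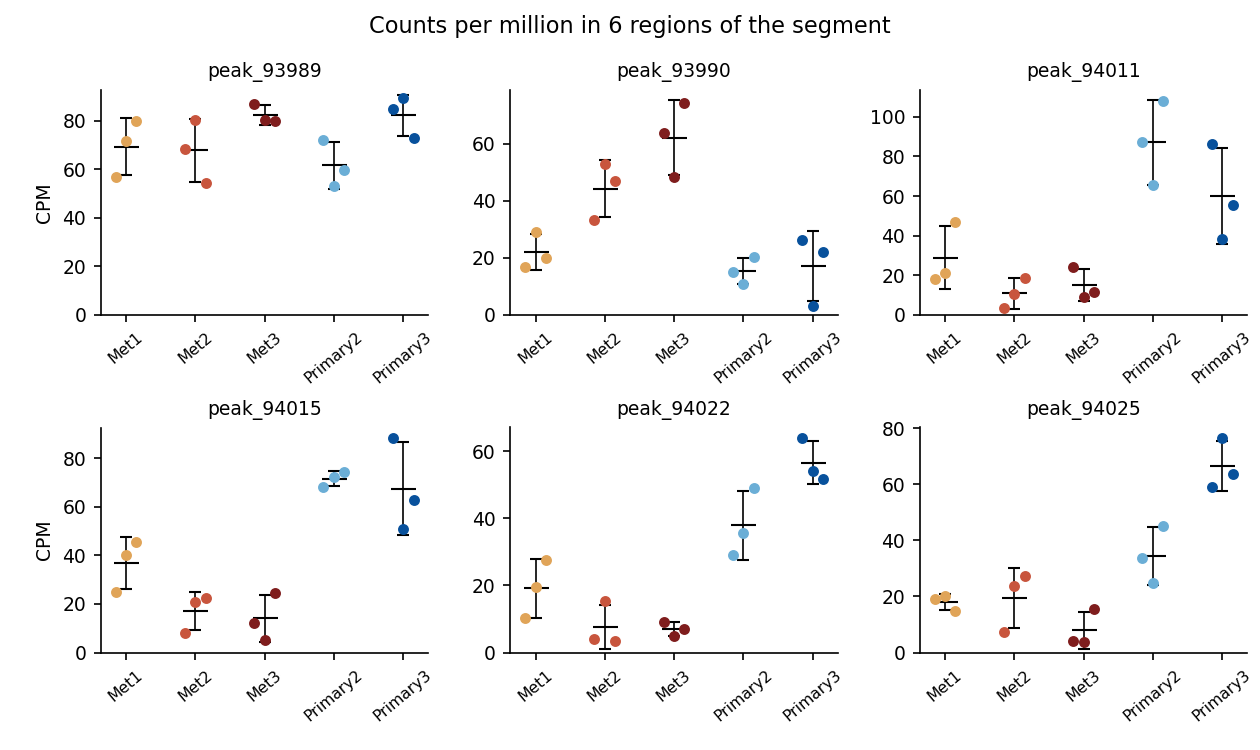
Signal in CPM in 6 members, with each line as a point and the group mean and SD (n = 3) as bars. The first panel (peak_93989) shows a steady region, peak_93990 is higher in the 6 later metastasis lines (33.2 to 74.5 CPM), and the other 4 are lower in them than in most or all primary lines.

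The 3 remaining members were not called. The signal was weak at peak_94002 (3.42 ± 2.85 against 3.75 ± 2.15 CPM, log2 fold change -0.58 ± 0.56). At peak_94031, which follows the run, the later metastasis lines held 11.2 ± 4.89 CPM and the primary lines 20.2 ± 8.06 (-0.71 ± 0.38). The last member, peak_94053, lies 151.2 kb further on and held 20.4, 16.8 and 16.1 CPM in Met1, 3.99, 13.9 and 12.6 in Met2 and 12.8, 6.10 and 7.12 in Met3. In primary lines it held 6.95, 5.47 and 9.68 CPM in Primary2 and 2.10, 0 and 16.0 in Primary3. Its Met1 lines were above all other lines, and the later metastasis lines overlapped the primary lines (log2 fold change 0.29 ± 0.46).

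By round, 5 members were called lower and 1 higher in Met2 than in Primary2, against 2.77% and 3.44% of all tested regions. In round 3, 9 were called lower and 1 higher in Met3 than in Primary3, against 4.52% and 5.64%. The called decreases of round 2 were at peak_94011 (-2.98 ± 0.47), peak_94029 (-2.93 ± 0.75), peak_94012 (-2.58 ± 0.48), peak_94022 (-2.22 ± 0.46) and peak_94015 (-2.06 ± 0.40). Those of round 3 included the same 5 and were led by peak_94025 and by peak_94022 (-3.03 ± 0.47). The round 2 call of peak_94029 was lost without Met2 replicate 2 or 3 and without Primary2 replicate 1 or 2. That of peak_93990 was lost without Met2 replicate 2 and without Primary2 replicate 1 or 2. In round 3, peak_94029 was not called without Met3 replicate 1 or 3, without Primary3 replicate 1 or 3, or with the replicate number as a block. The round 3 count fell to 6 members in all without Primary3 replicate 1. Both rounds share no line, but the fit is common and the descent of the lines is not known.

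A difference between the rounds in the metastasis effect was called at 0 of the 16 members by edgeR and by DESeq2, with 1 at an unadjusted p under 0.05. Over all 39952 regions edgeR also called 0, or 0%, with 6.43% at an unadjusted p under 0.05. DESeq2 called 15 regions over all.

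Along the series of metastases, 4 members were called lower and 1 higher in Met3 than in Met1, against 3.56% and 5.98% of all tested regions. The decreases were at peak_94012 (-1.78 ± 0.51), peak_94028 (-1.70 ± 0.53), peak_94022 (-1.53 ± 0.47) and peak_94015 (-1.49 ± 0.41), and the increase was at peak_93990 (1.46 ± 0.36). This comparison shares the Met3 lines with that of round 3. It rested on single lines, with 3 members called without Met1 replicate 2, 1 without Met1 replicate 3, 1 without Met3 replicate 1 and 2 without Met3 replicate 2 or 3. It was 3 with the replicate number as a block.

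Between Met2 and Met1, 0 members were called by edgeR and by DESeq2, against 0.909% of all regions called lower and 2.64% called higher by edgeR. At an unadjusted p under 0.05 there were 7 members, against 16.1% of all regions in either direction. The largest of these differences were at peak_94029 (-2.41 ± 0.76) and peak_94028 (-1.67 ± 0.54). Leaving out Met1 replicate 2, Met2 replicate 2 or Met2 replicate 3 gave 1 called member each.

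The lower level did not extend evenly into the surroundings. In the first 250 kb of the segment (14 tested members) the level was -0.69 ± 0.26 in later metastasis and 0.62 ± 0.15 in primary lines (SD, n = 6 each), with no overlap. In the next 250 kb, with only 2 tested members, it was -0.17 ± 0.34 and -0.24 ± 0.81. In the 3 windows of 250 kb just before the segment, later metastasis lines differed from primary lines by -0.12, 0.06 and -0.07, going outward.

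The fourth window outward, from 150000001 to 150250000 with 19 tested regions, was again lower, at -0.50 ± 0.35 in later metastasis and 0.31 ± 0.23 in primary lines. There the Met1 lines (0.69, 0.08 and 0.08) lay with the primary lines. The 4 regions after the segment, at the end of the chromosome, stood at -0.23 ± 0.20 in later metastasis and 0.24 ± 0.38 in primary lines, with overlap.

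Just outside the proximal border, 12.3 kb away, peak_93983 held 145.1 ± 35.4 CPM in later metastasis and 174.9 ± 31.0 in primary lines (n = 6 each) and 69.9 ± 9.59 in Met1 (n = 3). The member just inside, peak_93988, is described above. The first region beyond the distal border, peak_94212, held 3.06 ± 2.65 CPM in later metastasis and 4.58 ± 2.01 in primary lines.

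For scale, the segment was set beside the other windows of its own width of 1250 kb that held at least 10 tested regions. Its level differed by -1.19 between later metastasis and primary lines. The 66 other windows on chromosome 7 ranged from -0.74 to 1.23 (median 0.01), and of 1226 windows over the genome 4 were lower than the segment. This is a description of a segment chosen with its values known.

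**Figure D4:**
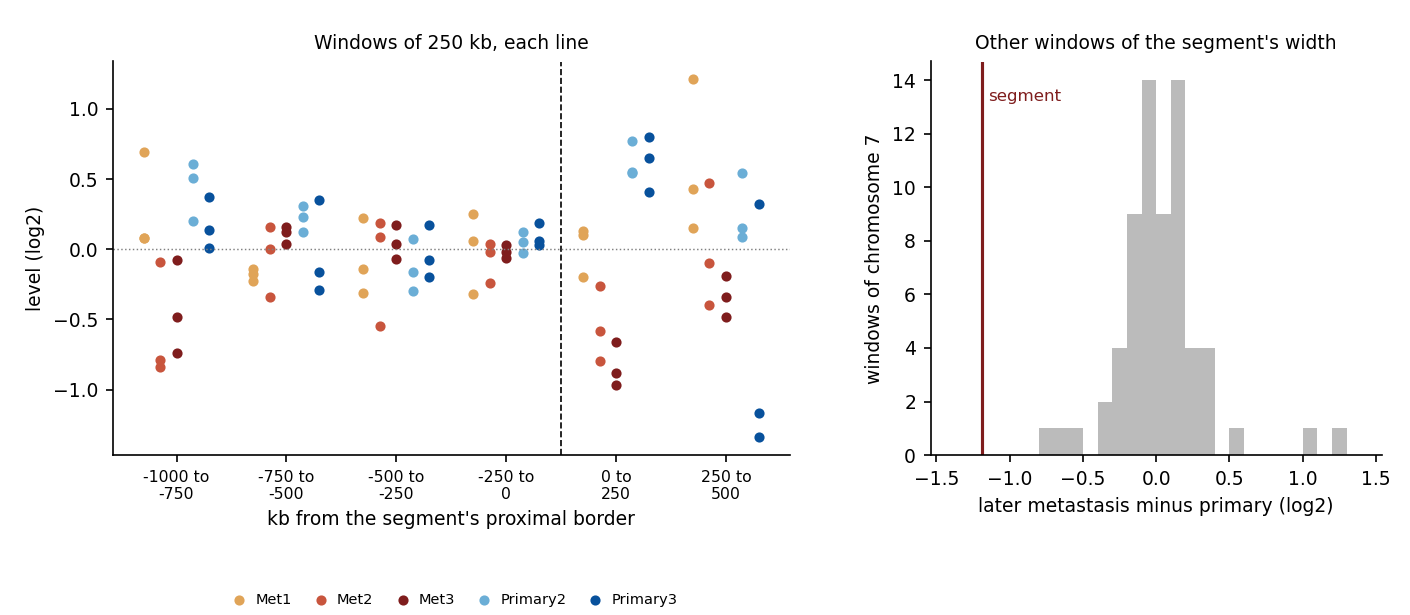
Left, level of each line (log2, relative to the rest of chromosome 7) in windows of 250 kb, with the segment to the right of the dashed line. Right, difference between later metastasis and primary lines in the 66 other chromosome 7 windows of the segment's width (grey bars), with the segment at -1.19 (line).

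The windows whose levels followed that of the segment most closely over the 15 lines lay on chromosome 11 (7500001 to 8750000, 30 regions, Pearson r = 0.926), chromosome 1 (92500001 to 93750000, 67 regions, 0.924) and chromosome 9 (115000001 to 116250000, 34 regions, 0.916). They differed between later metastasis and primary lines by -0.48, -0.44 and -0.71, less than the segment. These r values were chosen as the highest of 1226, and the 15 points share the division of the lines into groups.

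Across the 15 lines the median pairwise r was 0.27 over the 120 pairs of tested members, and the median over chromosome 7 windows was 0.05. Over the 45 pairs within the run it was 0.69, a value raised by the choice of its 10 members for a difference in 1 direction. Once the group means were removed the median was 0.09, with single pairs from -0.62 to 0.73, against a median of 0.06 in other chromosome 7 windows. Several members of the run have few counts, such as 1 to 13 in each Met2 and Met3 line at peak_94029. With few counts a low r within groups is likely in any case. The windows were not matched for depth, so nothing is read from the similar medians. No later metastasis line was highest throughout: Met2 replicate 2 was highest at 4 members of the run, Met3 replicates 2 and 3 at 2 each and Met2 replicate 3 and Met3 replicate 1 at 1 each.

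In features that the rule did not use, the medians of the members were near those of the rest of chromosome 7. Their median width was 793 bp against 774 bp, with a range from 270 to 1746 bp, and the median gap between neighbours was 11.6 kb against 14.0 kb. Regions at least 1000 bp wide were a smaller share of the members, 4 of 17, than of the rest of chromosome 7, 34.3%. The authors' score per region had a median of 23.4 against 24.9, and ran from 5.35 at peak_94027 to 201.1 at peak_93989.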

How the data were processed

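Per the labels' protocols, dissociated organoid cells were treated with the TDE1 enzyme and the libraries read from both ends. Tools named in the submitters' processing notes are bedtools, Bowtie, MACS2, Picard and SAMtools, without versions, and the build is mm9. Removal of duplicates and a shift of reads for the transposase were not stated in these sources. The authors deposited whole-number counts per region, with regions named as called over all samples together, so a region open in few lines weighed less in the calling.

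Members and gene lists were chosen with earlier results of these data known. Regions were named by position (nearest the place given for Ccnd1, the borders), by signal (8 highest) and by call (up to 4 per direction in rounds 2 and 3 together and up to 2 in each other contrast). The other members are named to account for all. Groups and replicate numbers came from the sample titles. No label says that the lines are paired, and p-values measure only the spread between these lines.

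Counts were tested with edgeR 4.0.16 (limma 3.58.1, R 4.3.3) after filterByExpr (minimum count 10, total 15), which kept 39952 of 43020 regions, in a single quasi-likelihood fit of 5 group means with TMM scaling. The script was tested on simulated data. Log2 CPM used a prior count of 2, and standard errors were derived from the F statistic. Alternatives were DESeq2 1.42.0, total-count scaling, other filters, other sets of groups, the replicate block, an offset for chromosome 7, other summaries of the level, and leaving out each line. Further work used Python 3.11.15, pandas 2.3.3 and matplotlib 3.10.9. Tissue markers and sequences of the regions were not used, since no mm9 annotation or genome was at hand.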

Additional observations from a re-analysis of the deposited data

Results flagged for a closer look

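In 36 sets of 6 lines (the 17 members and the segment level, in later metastasis and in primary lines), 2 had a line far from the rest, against 1.8 that chance gives at about 1 in 20. Both were Primary3 replicate 2, the shallowest library. It held 12.7 CPM at peak_94010, where the other 5 primary lines had 3.04 ± 1.37 (SD), and 31.9 CPM at peak_94024, where the others had 12.9 ± 2.62. These values rest on 4 and 10 counts.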

How the results depend on the processing

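The count of 11 members called in rounds 2 and 3 together was 10 or 11 under every alternative run, and with a single line left out. Leaving out a line gave 4 to 6 called members in round 2 (6), 6 to 9 in round 3 (10), 1 to 4 for Met3 against Met1 (5) and 0 to 1 for Met2 against Met1 (0). With the replicate number as a block the counts were 11, 6, 8, 3 and 0 in the same order. Over all tested regions, same-numbered lines did not deviate together (30 pairs, r from -0.21 to 0.16). Why fewer members were called with the block was not tested. With summed counts in place of the median over regions, the Met3 level was -0.46 (-0.71). The difference in the first 250 kb was then -0.93 (-1.31). Summed counts, like the share of chromosome 7 counts, weigh regions by their reads. In Met3 replicate 2, peak_93988, peak_93989 and peak_93990 held 127, 210 and 127 of 667 counts in members. In Primary3 replicate 1 they held 114, 242 and 75 of 1649. Whether these regions account for the shift was not tested. The log2 fold change of peak_93988 (0.07) was -0.02 and -0.03 without Met2 replicate 2 and Met3 replicate 2, and -0.03 to 0.17 over all lines left out in turn. Of 611 alternative values of single regions, 558 kept direction and call, 51 lost the call and 2 reversed. Leaving out both of the shallowest libraries, the alternatives for the difference between rounds and those for the 250 kb windows were added after seeing the data. Depth limits the weak members most, with 152 counts over all members in Primary3 replicate 2.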
